A study of Mus musculus with 6 samples.

Results

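Genes that take up, build and remodel lipoproteins were examined in liver of mice lacking Slug in hepatocytes. The set holds 10 genes chosen by name for their known roles, with earlier results of these data known. They are the receptors Sort1, Sorl1, Vldlr, Lrp1 and Scarb1, the assembly genes Mttp and Tm6sf2, and the remodelling genes Lipc, Lpl and Pltp. Of the 10 genes, 9 could be read among the 22180 genes of the arrays, and Lipc, the hepatic lipase, was not analysed here. Each gene was read from its probe set (the group of array probes summarised to 1 value) with the highest mean, and Sort1 also from its other probe set.

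Liver RNA came from 6 male C57BL/6J mice in 2 groups of 3, with 1 array per mouse. The 3 HKO mice were bred from Slug f/f mice (Slug is the protein of the gene Snai2, a zinc finger repressor) and albumin-CreERT2 drivers, a tamoxifen-inducible Cre expressed under the albumin promoter of hepatocytes. The 3 Con mice were Slug f/f littermates, and the sources used here do not say whether they carried Cre or how Cre was activated. Both groups received a high fat diet (60% of calories as fat) for 11 weeks from 8 weeks of age. No chow-fed group was analysed here, so all comparisons are HKO against Con under high fat feeding, and they ask which lipoprotein genes differ when hepatocytes lack Slug.

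The liver secretes triglyceride and cholesterol in very low density lipoproteins (VLDL). These are built in the endoplasmic reticulum as lipid is loaded onto apolipoprotein B, a step that needs the transfer protein MTTP. In the circulation lipases and transfer proteins strip and exchange the lipids, and receptors on hepatocytes take up the remnants and draw cholesterol from high density lipoproteins (HDL). Sorting receptors of the Vps10 family, among them sortilin, route new particles inside the cell.

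The arrays gave log2 values on which 1 unit is a factor of 2, and the median over genes was 3.94. Pairs of arrays of the same group correlated at 0.989 to 0.992 over all genes, and pairs from different groups at 0.986 to 0.988. Snai2 had values of 4.62, 5.23 and 5.69 in HKO livers, against 7.74, 7.69 and 7.39 in Con livers (log2 change -2.43 ± 0.25 SE, limma adjusted p = 0.0145, and 0.0179 to 0.0927 with each array left out in turn, under 0.05 in 3 of the 6 fits). All 12 hepatocyte markers were measured, and their mean value per array was 10.19 to 10.55 in HKO livers and 10.26 to 10.35 in Con livers. Over all genes 0.203% passed adjusted p 0.05 (0.0902% higher and 0.113% lower in HKO), 11.9% had an unadjusted p under 0.05 and 18.2% had groups without overlap.

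Slug binds E-boxes, with CAGGTG as the preferred core, so the promoters of the genes were searched for it. RefSeq promoter entries of the build GRCm38.p6 were found for 6 of the 10 genes (Sorl1, Vldlr, Lrp1, Mttp, Lipc and Pltp), 9 entries in all. Shown are the 250 bases before each start, 5′ to 3′ on the gene's strand, for the 3 genes with an entry and no overlap between the groups, with every E-box (CANNTG) in capitals. The Vldlr entries lie on the plus strand at chr19:27216234-27216483 and chr19:27216770-27217019, the Lrp1 entry on the minus strand at chr10:127621149-127621398 and the Mttp entry on the minus strand at chr3:138143419-138143668.
Vldlr, upstream start: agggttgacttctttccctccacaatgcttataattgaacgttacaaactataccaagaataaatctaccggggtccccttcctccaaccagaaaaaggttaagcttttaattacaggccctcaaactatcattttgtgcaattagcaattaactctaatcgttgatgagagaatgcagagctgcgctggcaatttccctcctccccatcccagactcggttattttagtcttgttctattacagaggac
Vldlr, downstream start: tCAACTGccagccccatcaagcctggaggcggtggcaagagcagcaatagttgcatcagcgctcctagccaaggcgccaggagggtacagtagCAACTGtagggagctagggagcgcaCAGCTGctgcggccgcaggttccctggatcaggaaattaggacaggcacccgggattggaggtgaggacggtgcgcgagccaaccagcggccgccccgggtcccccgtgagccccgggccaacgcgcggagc
Lrp1: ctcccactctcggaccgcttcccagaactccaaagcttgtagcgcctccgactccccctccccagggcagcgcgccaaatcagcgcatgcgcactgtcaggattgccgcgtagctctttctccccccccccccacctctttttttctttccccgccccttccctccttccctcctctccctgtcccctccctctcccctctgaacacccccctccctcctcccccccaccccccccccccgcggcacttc
Mttp: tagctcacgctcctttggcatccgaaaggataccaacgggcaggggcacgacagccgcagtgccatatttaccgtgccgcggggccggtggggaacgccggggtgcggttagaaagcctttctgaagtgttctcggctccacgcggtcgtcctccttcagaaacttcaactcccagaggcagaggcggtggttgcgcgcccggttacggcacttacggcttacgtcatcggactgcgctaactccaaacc

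The letters CAGGTG or their complement CACCTG occurred in 0 of the 9 entries, and in 17.2% of the 32851 entries of the table over the same 250 bases. The 9 entries come from 6 genes, too few to tell 0 apart from that share. Sort1, the only gene of the set that passed the test, had no entry, and neither did Scarb1, Tm6sf2 or Lpl. Their promoters were therefore not searched, and the 0 of 9 does not cover them. The 9 entries include those of Lipc, which has no expression value here. Any CANNTG, a palindromic pattern that includes CAGGTG, occurred in 4 of the 9 entries and in 66.2% of all entries. The downstream Vldlr start had CAACTG at 249 and 157 bases and CAGCTG at 132 bases before it, while the Lrp1, Mttp and upstream Vldlr windows held none. These are matches of letters in short windows, and binding was not measured.

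**Figure D1:**
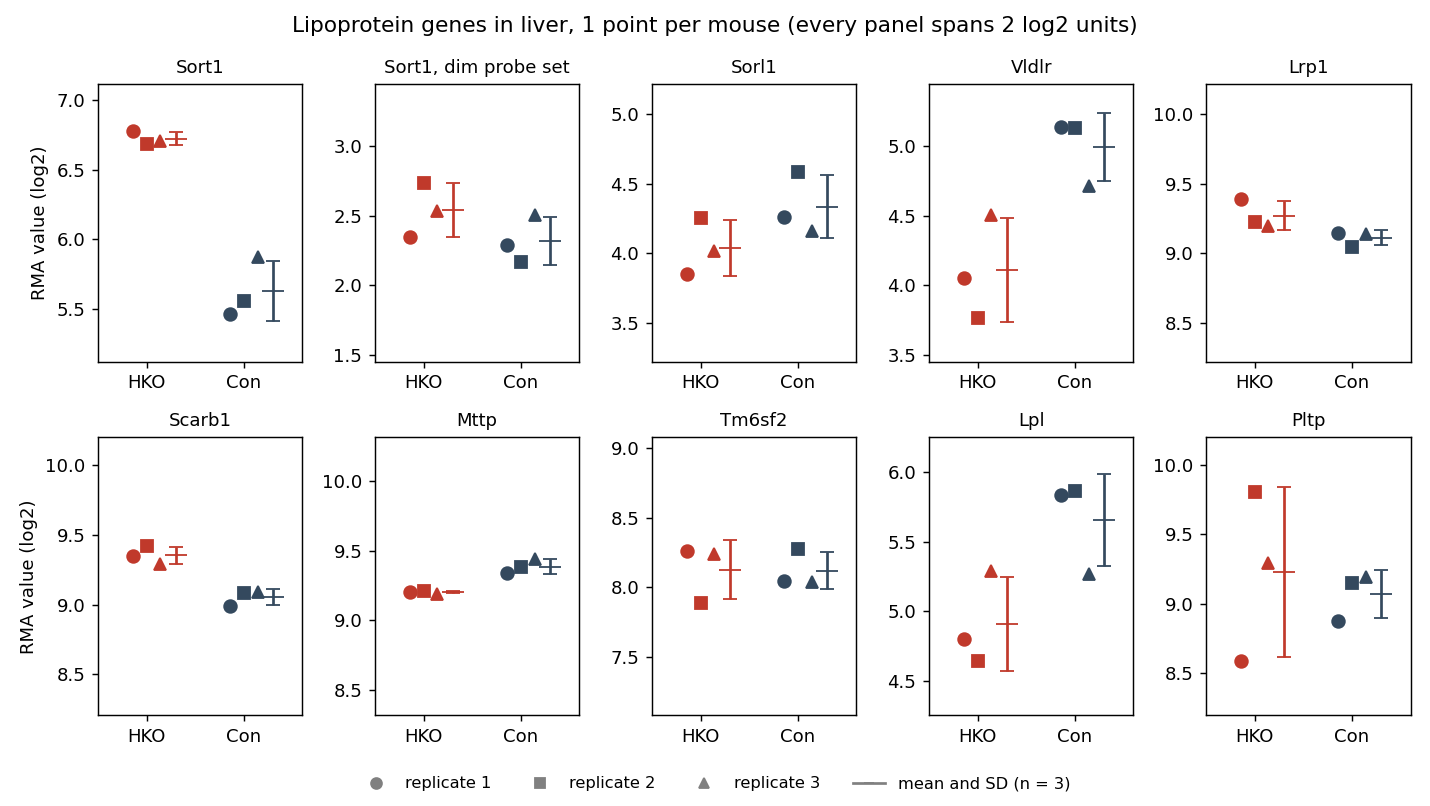
Log2 values of the 9 measured genes and of the dim Sort1 probe set, 1 point per mouse (shape gives the replicate number), with the mean and SD of each group beside the points. HKO is on the left of each panel and Con on the right, and every panel spans 2 log2 units. Sort1 in HKO (6.69 to 6.78) lies above Con (5.46 to 5.87), Vldlr in HKO (3.76 to 4.51) lies below Con (4.71 to 5.14), and Pltp has its highest and its lowest value among the HKO mice.

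Sort1 was the receptor gene that rose, about 2-fold, while Vldlr and Lpl had the lowest log2 changes of the set without passing the test. Of the 9 genes, 1 passed adjusted p 0.05, higher in HKO, where 0.0902% of all genes rose and 0.113% fell, and 4 had an unadjusted p under 0.05, 2 of them higher and 2 lower in HKO. The groups had no overlap in 5 of the 9 genes, with 3 higher and 2 lower in HKO. The set was drawn up with results of these arrays known, so these shares are not set against the 0.203%, 11.9% and 18.2% of all genes by a test. The median log2 change of the 9 genes was 0.0087, beside -0.0081 over all genes.

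Sort1 encodes sortilin, a Vps10 receptor of the Golgi that binds apolipoprotein B and other ligands. Its main probe set read 6.78, 6.69 and 6.70 in HKO livers, against 5.46, 5.56 and 5.87 in Con livers. Every HKO mouse was above every Con mouse, with a gap of 0.82 between the groups, and the HKO mice lay within 0.089 of each other. The means were 6.72 ± 0.048 in HKO and 5.63 ± 0.22 in Con (SD, n = 3 each). The log2 change was 1.09 ± 0.13 (SE; 95% interval 0.80 to 1.38), or 2.13-fold higher in HKO, with a limma adjusted p of 0.0249 over all genes. By unadjusted p it ranked 20 among the 22180 genes.

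The call for Sort1 was lost when any 1 of 5 arrays was left out. With an HKO array removed, its adjusted p in limma was 0.0961 (replicate 1), 0.0730 (replicate 2) or 0.0986 (replicate 3). With a Con array removed, it was 0.0965 (replicate 1), 0.149 (replicate 2) or 0.0157 (replicate 3). The change itself stayed between 1.01 and 1.21 in these fits. An exact permutation test (two-sided) on Sort1 returned p = 0.1, which is the lowest value possible with 3 mice in each group. The other Sort1 probe set read 2.35, 2.74 and 2.53 in HKO livers, against 2.29, 2.16 and 2.51 in Con livers. Those groups overlapped, its log2 change was 0.22 (95% interval -0.10 to 0.54), and both means lay below the median over genes, so it is not shown to be above background. With both probe sets averaged the Sort1 change was 0.66 and the adjusted p 0.106.

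Sorl1, the related Vps10 receptor SORLA, was dim and did not pass. It read 3.85, 4.25 and 4.02 in HKO livers, against 4.26, 4.59 and 4.16 in Con livers. HKO replicate 2 lay above Con replicate 3, so the groups overlapped. The log2 change was -0.30 ± 0.15 (SE; 95% interval -0.64 to 0.05; limma adjusted p = 0.497), and -0.17 without Con replicate 2.

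Vldlr encodes the VLDL receptor, which binds triglyceride-rich particles and is best known from muscle, heart and fat. Its values were 4.06, 3.76 and 4.51 in HKO livers, against 5.14, 5.13 and 4.71 in Con livers. All 3 HKO mice were below all 3 Con mice, although HKO replicate 3 and Con replicate 3 stood only 0.21 apart. The means were 4.11 ± 0.37 in HKO and 4.995 ± 0.24 in Con (SD, n = 3 each), and the HKO mean was close to the median over genes, a range in which array values are compressed. The log2 change of -0.89 ± 0.20 (SE; 95% interval -1.35 to -0.42) did not pass over all genes (limma adjusted p = 0.167, unadjusted p = 0.00219).

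Scarb1 encodes SR-BI, the HDL receptor through which hepatocytes take up cholesteryl ester. It read 9.35, 9.42 and 9.29 in HKO livers, against 8.99, 9.08 and 9.09 in Con livers. The groups did not overlap and were 0.20 apart at the nearest mice, more than the range within either group. The log2 change of 0.30 ± 0.10 (SE; 95% interval 0.08 to 0.52), or 1.23-fold, had an unadjusted p of 0.0149 and a limma adjusted p of 0.298.

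Lrp1, the large endocytic receptor that clears remnant particles and many other ligands, differed less. Its values were 9.39, 9.22 and 9.20 in HKO livers, against 9.15, 9.05 and 9.14 in Con livers. The HKO mice were all above the Con mice, by 0.050 at the nearest, which is smaller than the range within each group. The log2 change was 0.16 (95% interval -0.08 to 0.40; limma adjusted p = 0.600), and 0.0995 without HKO replicate 1.

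**Figure D2:**
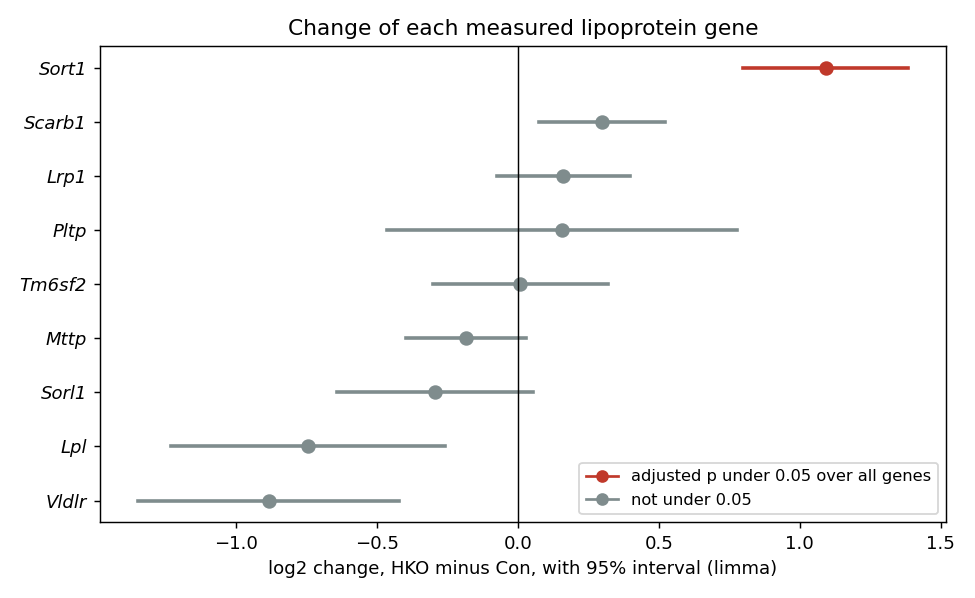
Log2 change (HKO minus Con) of the 9 measured genes with limma's 95% intervals, in order of size, red where adjusted p over all genes was under 0.05. Sort1 (1.09) is the only red gene, the intervals of Scarb1, Lpl and Vldlr leave out 0, and those of Pltp and Tm6sf2 reach well to both sides of it.

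Of the assembly genes, neither passed. Mttp encodes the large subunit of the microsomal triglyceride transfer protein. It read 9.21, 9.21 and 9.19 in HKO livers, against 9.34, 9.38 and 9.44 in Con livers. The groups did not overlap, the HKO mice lay within 0.016 of each other, and the gap to the nearest Con mouse was 0.13. The log2 change was -0.18 ± 0.09 (SE; 95% interval -0.40 to 0.03), 1.14-fold lower in HKO, with a limma adjusted p of 0.494.

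Tm6sf2 encodes a membrane protein of the endoplasmic reticulum that is needed to load VLDL with lipid. Its values were 8.26, 7.89 and 8.24 in HKO livers, against 8.05, 8.27 and 8.04 in Con livers. The groups overlapped fully, with HKO replicate 2 lowest and Con replicate 2 highest of all 6 mice. The log2 change was 0.0087 (95% interval -0.30 to 0.32; limma adjusted p = 0.988), and its sign turned when HKO replicate 1 (-0.056), HKO replicate 3 (-0.047), Con replicate 1 (-0.028) or Con replicate 3 (-0.031) was left out.

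Among the remodelling genes, Lpl had lower values in most HKO mice and Pltp varied widely among them. Lpl encodes lipoprotein lipase, which hydrolyses triglyceride in circulating particles and is made mainly in fat, muscle and macrophages, with low levels in adult liver. It read 4.80, 4.64 and 5.29 in HKO livers, against 5.83, 5.86 and 5.27 in Con livers. HKO replicate 3 was just above Con replicate 3, and apart from that pair all HKO mice were below the Con mice. The log2 change of -0.75 ± 0.21 (SE; 95% interval -1.23 to -0.26) had an unadjusted p of 0.00753 and a limma adjusted p of 0.251. Its other probe set averaged 2.14 in HKO and 2.13 in Con, both below the median over genes, and with the probe sets averaged the Lpl change was -0.37 (limma adjusted p = 0.343).

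Pltp encodes the phospholipid transfer protein, which moves phospholipid from triglyceride-rich particles to HDL. Its values were 8.59, 9.80 and 9.29 in HKO livers, against 8.88, 9.15 and 9.19 in Con livers. HKO replicate 2 was the highest and HKO replicate 1 the lowest of the 6 mice, and the SD was 0.61 in HKO and 0.17 in Con. The log2 change of 0.16 (95% interval -0.47 to 0.78; limma adjusted p = 0.869) moved to -0.13 when HKO replicate 2 was dropped, to 0.47 when HKO replicate 1 was, and to 0.057 when Con replicate 1 was. Srebf2, the transcription factor of cholesterol synthesis genes, also had its highest value in HKO replicate 2 (7.35, 7.91 and 7.58 in HKO, against 6.90, 7.04 and 7.31 in Con). The patterns differed in HKO replicate 1, the lowest mouse for Pltp but above every Con mouse for Srebf2. A link between Pltp and Srebf2 was not tested.

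Vldlr and Lpl ran closely together over the 6 mice. After each gene was centred on its own mean, the root mean square distance between them was 0.0956 log2 units. Of the other 22179 genes, 1 was nearer to Vldlr than Lpl was, and the same gene, Slc13a3, was also the 1 gene nearer to Lpl than Vldlr was. Slc13a3, a sodium-dependent dicarboxylate transporter, read 6.41, 6.19 and 6.73 in HKO livers, against 7.33, 7.48 and 6.99 in Con livers. This pair was picked out after its values were seen, and the measure carries no test. In all 3 genes HKO replicate 2 was the lowest mouse, HKO replicate 3 the highest of the HKO mice and Con replicate 3 the lowest of the Con mice.

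The genes whose pattern was most like that of Sort1, by the same distance, were Afmid (0.126), Sult2a8 (0.129), Cyp2c50 (0.132), Mup21 (0.142) and Igfals (0.1499). Afmid, a kynurenine formamidase, read 8.91, 8.89 and 8.97 in HKO livers, against 7.94, 8.02 and 8.22 in Con livers. Igfals, the acid-labile subunit that binds insulin-like growth factor complexes in serum, read 7.12, 7.27 and 7.16 in HKO livers, against 6.06, 6.34 and 6.26 in Con livers. These genes were chosen by likeness to Sort1 on the same arrays, so their higher values in HKO follow from the choice. Their p-values are therefore no separate evidence. Afmid (limma adjusted p = 0.0344), Cyp2c50 (0.0145) and Igfals (0.0251) passed, while Sult2a8 (log2 change 0.89, adjusted p = 0.0837) and Mup21 (0.97, 0.0939) did not. Sult2a8 and Mup21 passed when genes below a mean of 4 (adjusted p = 0.0409 for Sult2a8 and 0.0443 for Mup21) or 5 (0.0224 and 0.0264) were left out, and with a variance trend (0.00953 and 0.0178), and Sult2a8 also without Con replicate 3 (0.0297). With each array left out in turn, the adjusted p was under 0.05 in 1 of 6 fits for Afmid (0.0417 to 0.164), in 2 for Cyp2c50 (0.0349 to 0.0927) and in 0 for Igfals (0.0585 to 0.0965). Cyp2c50, Sult2a8 and Mup21 have close relatives in the genome whose transcripts their probes may also take up.

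**Figure D3:**
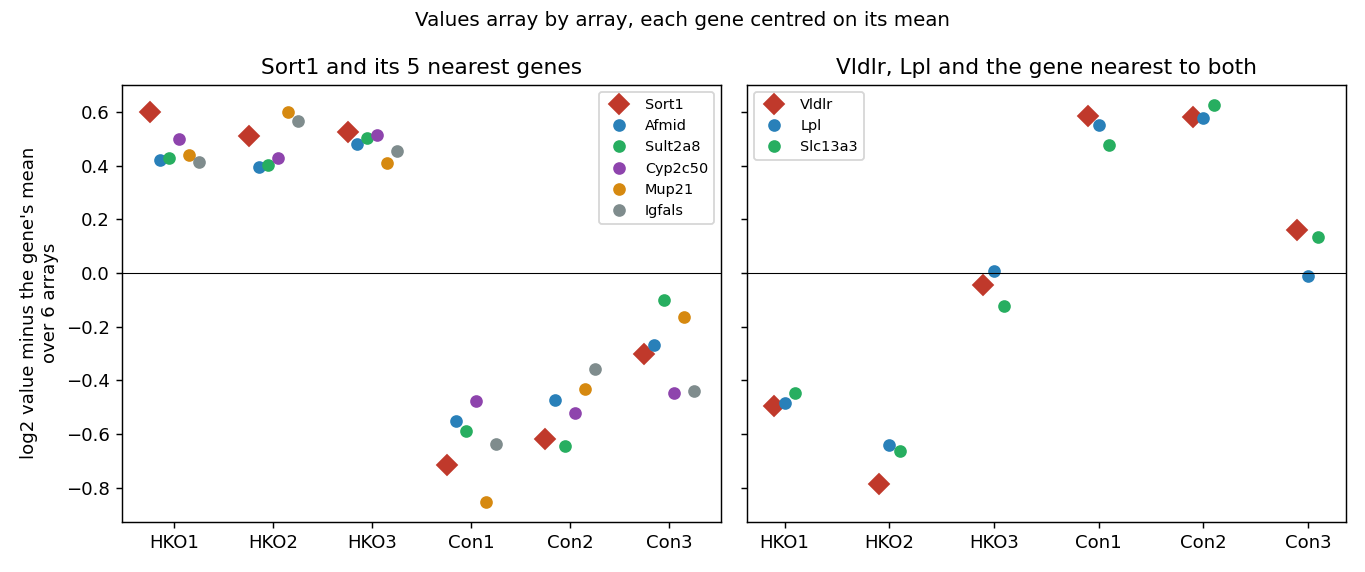
Log2 value minus the gene's mean over the 6 arrays, array by array, for Sort1 (diamonds) with its 5 nearest genes and for Vldlr (diamonds) with Lpl and Slc13a3. The HKO arrays are on the left, and the genes beside Sort1 and Vldlr were picked for their likeness on these same arrays. In the Sort1 panel the HKO values of each gene but Cyp2c50 spread less than its Con values, and in the Vldlr panel the points of the 3 genes lie close together on every array, with HKO replicate 3 and Con replicate 3 near the middle.

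Other genes of lipoprotein handling were read from 4 lists by role, 67 genes in all, of which 59 were measured. In limma 0 of the 59 passed adjusted p 0.05 in either direction, while at an unadjusted p under 0.05 there were 5 higher and 9 lower in HKO, where all genes gave 5.31% higher and 6.56% lower. Their median log2 change was -0.017, beside -0.0081 over all genes. HKO values lay wholly above Con in 11 of the 59 genes and wholly below in 7, beside 8.05% and 10.1% of all genes.

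In the list of receptors, adaptors and their regulators 16 of 20 genes were measured, with a median log2 change of 0.057. The lowest p belonged to Cd36, a scavenger receptor and fatty acid transporter, at 8.55, 8.94 and 9.32 in HKO livers, against 9.62, 9.63 and 9.54 in Con livers (log2 change -0.66, limma adjusted p = 0.237). Dab2, an endocytic adaptor of this receptor family, was at 0.31 (adjusted p = 0.389). Lrpap1, the chaperone that keeps ligands off newly made receptors, was at -0.26 (adjusted p = 0.511), and at -0.16 without Con replicate 3.

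In the assembly and secretion list 13 of 14 genes were measured, with a median log2 change of -0.034 and a range from -0.28 to 0.20. P4hb, the protein disulfide isomerase that forms the small subunit of the transfer complex with MTTP, read 10.38, 10.25 and 10.19 in HKO livers, against 10.59, 10.51 and 10.57 in Con livers. Its groups did not overlap, and its log2 change of -0.28 had a limma adjusted p of 0.334. P4hb had the lowest p of the list. HKO values lay wholly above Con in 3 of the 13 genes and wholly below in 2, beside 8.05% and 10.1% of all genes. Mia2, which helps large cargo leave the endoplasmic reticulum, was at 0.20 (adjusted p = 0.470), and A1cf, a cofactor of apolipoprotein B RNA editing, at 0.19 (0.549).

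In the remodelling list 17 of 18 genes were measured, with a median log2 change of -0.12. At an unadjusted p under 0.05 there were 1 higher and 6 lower in HKO, beside 5.31% and 6.56% of all genes. The list was chosen with earlier results of these data known, and this share was not tested. Angptl8, a secreted inhibitor of lipoprotein lipase, read 7.84, 8.17 and 7.67 in HKO livers, against 8.35, 8.43 and 8.75 in Con livers (log2 change -0.61, limma adjusted p = 0.220). Lipg, the endothelial lipase that acts on HDL, read 6.85, 6.03 and 5.91 in HKO livers, against 7.13, 7.40 and 6.96 in Con livers (-0.90, adjusted p = 0.226). Lcat, which esterifies cholesterol on HDL, had the opposite sign at 0.27 (adjusted p = 0.343). The HKO values of Angptl8 and Lipg were all below the Con values, and those of Lcat were all above.

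Of the transcription regulators known to act on genes of the set, 13 of 15 were measured, with a median log2 change of 0.060. Srebf2 was at 0.53 (limma adjusted p = 0.290), Rxra, the shared partner of lipid-sensing nuclear receptors, at 0.27 (0.341), and the coactivator Ppargc1b at 0.33 (0.370). All 3 had HKO values above every Con value and did not pass. They were named for the lowest p in the list, in which 7 genes had a higher and 6 a lower mean in HKO. HKO values lay wholly above Con in 4 of the 13 genes and wholly below in 0, beside 8.05% and 10.1% of all genes.

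**Figure D4:**
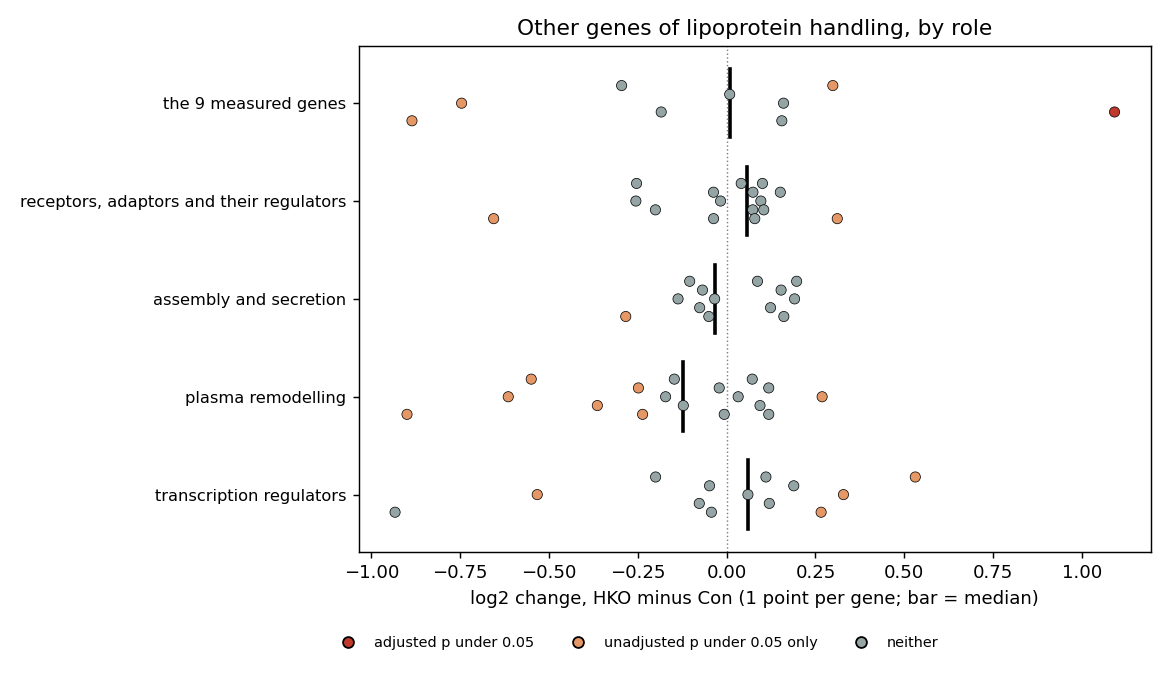
Log2 change (HKO minus Con) of the 9 measured genes of the set and of the 59 other genes of lipoprotein handling, 1 point per gene in rows by role, with a bar at each row's median. Sort1 is the only point past adjusted p 0.05, and the remodelling row has its median at -0.12 with 6 of its 7 genes at an unadjusted p under 0.05 on the lower side. Of all genes, 5.31% were higher and 6.56% lower in HKO at that unadjusted p.

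The liver pieces hold several cell types, and in bulk RNA fewer cells of a type and less RNA per cell cannot be told apart. Lpl, Vldlr and Lipg are made by macrophages, fat cells or endothelium as well as, or more than, by hepatocytes, so marker lists of those cells were read on the same arrays. For comparison with the counts of lower markers, 11484 of all 22180 genes had a lower mean in HKO. Markers of lipid-associated and monocyte-derived macrophages had a mean log2 value per array of 4.19 to 4.65 in HKO livers and 5.01 to 5.24 in Con livers, with 10 of 10 measured genes lower and Itgax past adjusted p 0.05 (0.0280). Summed on the linear scale these markers held 236 to 322 units in HKO and 394 to 447 in Con. The HKO mean of Itgax (3.42) lay below the median over genes, so its level in HKO is not shown to be above background. Of the 10 measured macrophage markers, 2 had both group means below that median. Kupffer cell markers overlapped, at 6.76 to 6.95 in HKO and 6.85 to 7.20 in Con, with 8 of 11 genes lower and sums of 1435 to 1615 units in HKO and 1458 to 1836 in Con.

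Endothelial markers were at 7.59 to 7.63 in HKO and 7.69 to 7.75 in Con, with 5 of 10 genes lower and sums of 2219 to 2274 units in HKO and 2275 to 2329 in Con. Stellate cell and fibroblast markers were at 6.15 to 6.31 in HKO and 6.54 to 6.85 in Con, with 9 of 12 genes lower, sums of 1626 to 1784 units in HKO and 1895 to 2143 in Con, and Col1a2 past adjusted p 0.05 (0.0415). The adipocyte list was at 4.03 to 4.55 in HKO and 4.81 to 4.96 in Con, with 5 of 8 genes lower, sums of 186 to 361 units in HKO and 698 to 858 in Con, and Fabp4 past adjusted p 0.05 (0.0444). The median log2 change of this list was -0.068, and its lowest values were those of Cidec (-2.89, limma adjusted p = 0.107), a lipid droplet protein, Fabp4 (-1.22) and Plin4 (-1.06, adjusted p = 0.305). Its defining genes Adipoq, Lep and Plin1 lay below the median over genes on every array, and the HKO values of Adipoq (log2 change 0.28) and Lep (log2 change 0.20) were all above the Con values without passing. Cholangiocyte markers overlapped (3.77 to 3.89 in HKO, 3.86 to 3.97 in Con, 5 of 6 genes lower, sums of 103 to 138 units in HKO and 109 to 128 in Con), and Krt19, Krt7 and Cftr were below the median on every array. Hepatocyte markers, 8 of 12 of them higher, summed to 24352 to 28042 units in HKO and 24583 to 26436 in Con. With each array left out in turn, the adjusted p ran from 0.0621 to 0.149 for Itgax, from 0.0758 to 0.176 for Col1a2 and from 0.0157 to 0.173 for Fabp4. With quantile normalization repeated it was 0.0576 for Col1a2 and 0.0608 for Fabp4, and with probe sets averaged the Col1a2 change was -0.58 (limma adjusted p = 0.0975). The part of these cell types in the values of Vldlr, Lpl and Lipg, all lower in HKO, was not tested. It was also not tested for genes of the set that were not lower, such as Lrp1 and Pltp (log2 change 0.16 each).

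**Figure D5:**
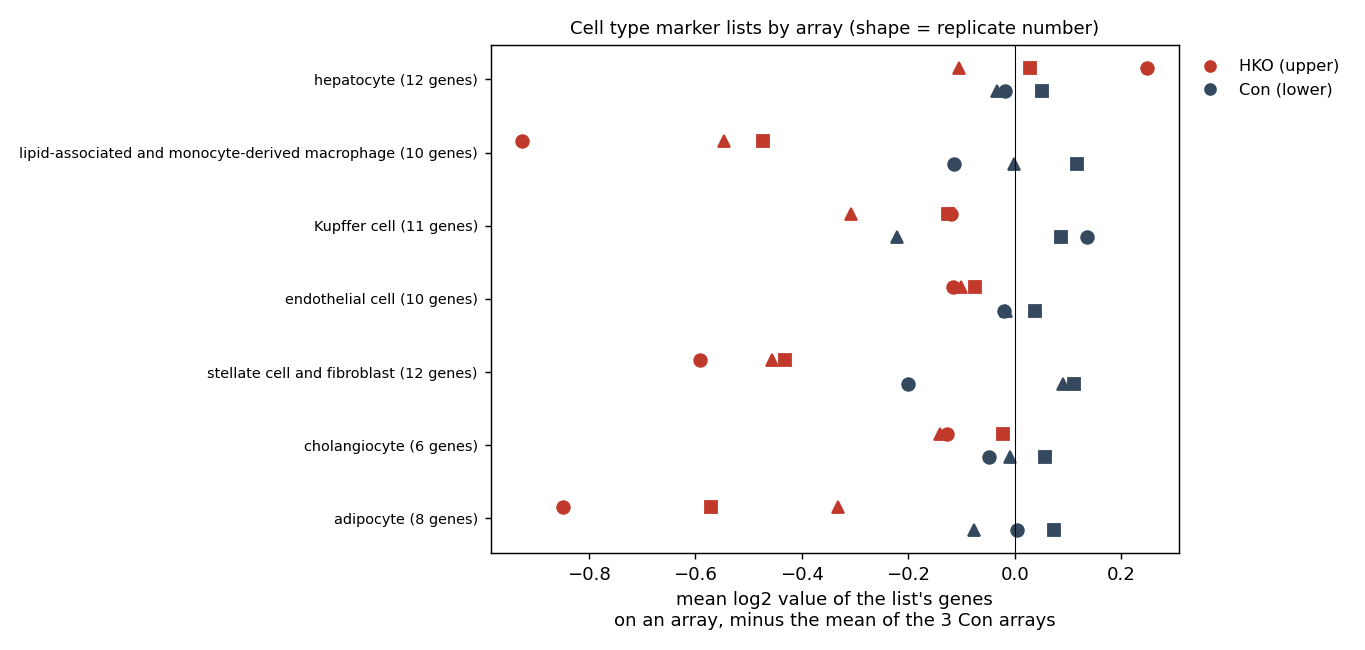
Mean log2 value of each cell type marker list on each array, minus the mean of the 3 Con arrays, with HKO (red, upper) and Con (dark, lower) and the shape giving the replicate number. The HKO arrays lie left of all Con arrays in the macrophage, stellate cell, adipocyte and, by a smaller distance, endothelial rows, and the groups overlap in the hepatocyte, Kupffer cell and cholangiocyte rows.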

How the data were processed

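Biotin-labelled cDNA from 400 ng of liver RNA per mouse was hybridised to Affymetrix arrays, per the labels' protocols. The authors deposited log2 values from RMA, run in R 3.3.0 according to the submitters' processing notes. RMA equalises the arrays' distributions and compresses changes of dim genes. The sources used here do not name the array's genome build. Arrays have no read depth, so their number limits the precision.

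Of 41345 probe sets, 23521 had 1 gene in the platform annotation and gave 22180 genes, represented by the brightest probe set. HKO was compared with Con with the R 4.3.3 package limma 3.58.1, by a two-sided moderated test (lmFit, then eBayes) with a single group term. No filter was used, and p-values were adjusted for all genes by Benjamini-Hochberg. SE and 95% intervals are limma's moderated ones. The steps were tested on simulated data. A group mean below the median over genes is called not shown above background.

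The 10 genes, the 4 role lists and the 7 marker lists were chosen with earlier results of these data known. Genes named by rule are the 10 genes, Snai2, members of a role list past the threshold or else the 3 of lowest p, markers past the threshold, and the 5 genes nearest to Sort1. Slc13a3, Cidec and Plin4 were named after their values were seen. The closing section gives the alternatives tried. Python 3.11.15 and matplotlib 3.10.9 made the figures.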

Additional observations from a re-analysis of the deposited data

How the results depend on the processing

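The call for Sort1 was lost in 3 fits on all 6 arrays: with probe sets of a gene averaged (log2 change 0.66, limma adjusted p = 0.106), with a variance of its own for each gene (1.09, 0.221) and with replicate number taken as a block (1.09, 0.0800). The count of genes of the set past the threshold was 0 in each of them and 1 in the reported fit and the other 8 on all arrays. Leaving out 1 array at a time gave a Sort1 change between 1.01 and 1.21 and a count between 0 and 1, passing only without Con replicate 3. The count of 0 among the 59 other pathway genes held in every fit run. Tm6sf2 turned sign with array weights (-0.012) and without any 1 of 4 arrays (HKO replicate 1, -0.056, and 3, -0.047; Con replicate 1, -0.028, and 3, -0.031; range -0.056 to 0.13). Pltp turned sign without HKO replicate 2 (range -0.13 to 0.47). Of 134 comparisons of the 8 other genes of the set with an alternative, 128 kept direction and side of the threshold and these 6 turned; the cause was not tested. Sorl1 and Vldlr fell under the filter at a mean of 5 and have no value there. Same-numbered HKO and Con mice deviated from their group means with correlations of 0.032, 0.016 and 0.021, all under the 0.1 needed to take the numbers as pairs, although every mouse matched its own number best. The calls for Snai2, Itgax, Col1a2, Fabp4, Afmid, Cyp2c50 and Igfals were each lost with unshared variance (limma adjusted p 0.0899 to 0.292) and with the block (0.0514 to 0.1004). All genes past the threshold numbered 45, against 3 with the block, 215 with a variance trend, 146 and 242 with filters at 4 and 5, 0 with unshared variance, and 4 to 32 without 1 array.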
